A study of Mus musculus with 12 samples.

Results

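The vacuolar proton pump (V-ATPase) and the cathepsins were followed across the cell populations of the growing forelimb zeugopod, the segment of radius and ulna. The genes were taken by symbol: every pump subunit (*Atp6v0* and *Atp6v1*), its accessory proteins (*Atp6ap1*, *Atp6ap2*), the cathepsins (*Cts* and 1 letter), and *Tcirg1*, *Clcn7*, *Ostm1*, *Lamp1* and *Lamp2*. These symbols took 51 of 36186 gene rows, which held 50 genes because *Atp6v0a2* had 2 rows. Of the 51 rows, 32 reached 5 NRPKM (RPKM, reads scaled by gene length and library depth, normalized further between libraries by the authors) in at least 3 of the 12 libraries, as did 10936 rows of the whole table. RNA-Seq was made from mouse embryos at E15.5 on a mixed 129/CD-1 background, with 3 libraries each of WT resting, WT proliferative and WT hypertrophic chondrocytes and 3 of *aadd*. The *aadd* embryos carried mutations in *Hoxa9*, *Hoxa10* and *Hoxa11* together with *Hoxd9*, *Hoxd10* and *Hoxd11*, and the WT embryos in none of these. The GEO labels name the hypertrophic compartment hyperproliferative and give *aadd* the compartment name resting, while by the study's methods the whole undifferentiated chondrocyte population was taken from *aadd*. Cells were cut out by laser capture microdissection (LCM) with some flanking perichondrium, so no library is pure cartilage, and 20 ng of RNA entered each. The study counts its sets of WT and *aadd* compartments as independent without naming the embryos, so *P* values measure the spread between these libraries.

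The V-ATPase is a rotary machine that spends ATP to move protons into lysosomes, endosomes and secretory vesicles. Its V1 sector lies in the cytosol and splits ATP, and its V0 sector lies in the membrane and carries the protons. Cathepsins are proteases that mostly work in the acid interior that the pump makes. Osteoclasts, the multinucleated cells that resorb bone and calcified cartilage, place the pump in the membrane facing the matrix with subunit isoforms of their own, let chloride through with a chloride-proton exchanger, and digest collagen with cathepsin K. Loss of *TCIRG1*, *CLCN7* or *OSTM1* function causes osteopetrosis in humans, a disease of dense bone that is not resorbed, and loss of cathepsin K causes pycnodysostosis. *Tcirg1*, *Atp6v0d2*, *Clcn7*, *Ostm1* and *Ctsk* were therefore called osteoclast-type, and the other subunits ubiquitous or tissue-restricted by their known range.

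By role, 4 of 5 osteoclast-type genes passed the filter, as did all 7 rows of ubiquitous V0 subunits, all 8 of ubiquitous V1 subunits, both accessory proteins, 2 of 7 tissue-restricted subunits, 5 of 9 other cysteine cathepsins, 2 of 4 aspartic and serine cathepsins, and both lysosomal membrane proteins. None of the 4 placental cathepsins (*Ctsj*, *Ctsm*, *Ctsq*, *Ctsr*) passed, nor did the 3 pseudogenes or unassigned rows. *Atp6v0d2* passed only because all 3 hypertrophic libraries reached 5 NRPKM, replicate 1 at 5.30. *Ostm1* and *Ctsc* just missed it, being above 5 NRPKM in hypertrophic replicates 2 and 3 alone. Of the 19 rows below the filter, 16 stayed under 5 NRPKM in every library.

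Hypertrophic replicates 2 and 3 stood apart from the other 10 libraries, replicate 1 of their own compartment included. Depth came to 1.89 to 3.24 M reads (M for mega) per library, read from the value that 1 read gives in single-exon genes that cartilage should not express. The share of such genes above 0, a sign of stray signal, was 7.85 to 34.8%, with hypertrophic replicate 1 at 34.8% and 1 WT proliferative library as high. Of 11 osteoclast markers outside the pump and cathepsin set, 10 were higher in hypertrophic replicates 2 and 3 than in any other library, and *Siglec15* was listed at 0 in all the others. Their summed level was 977 and 839 NRPKM there and 40.9 to 62.4 NRPKM elsewhere, with hypertrophic replicate 1 at 55.4. The 12 macrophage markers summed to 501 and 424 NRPKM against at most 61.1, mostly from *Cd68*, *Tyrobp*, *Laptm5* and *Csf1r*. With *Cd14* these made 5 of 12 above every other library. The rest were not, among them *C1qb* (6.10 and 1.90 against up to 10.6) and *Mrc1* (2.21 and 2.45 against up to 6.71). The 10 endothelial markers summed to 304 and 212 NRPKM against at most 37.3, with 10 of 10 above. The 6 hypertrophic chondrocyte markers summed to 2363 and 2268 NRPKM in these 2 libraries, 703 in hypertrophic replicate 1 and at most 440 in the other groups, but only 3 of the 6 (*Mmp13*, *Spp1*, *Dmp1*) were above every other library there. *Col10a1*, *Panx3* and *Ihh* were highest in hypertrophic replicate 1 (264, 344 and 56.3 NRPKM, against 166, 235 and 9.54 in replicate 2 and 221, 221 and 15.3 in replicate 3). The 7 osteoblast markers summed to 2032 and 2956 NRPKM against 1460 in replicate 1 and at most 1068 elsewhere, mostly from *Col1a1* and *Ibsp*, with 5 of 7 above every other library, *Alpl* by a narrow margin (121.7 against 121.1), while *Runx2* was highest in replicate 1 (134.7 against 102.2 and 114.9) and *Sp7* in replicate 1 (125.6) exceeded replicate 2 (112.3). All 8 cartilage markers were lower in these 2 libraries than in any other, at 508 and 704 NRPKM in sum against at least 1953. The filter passed 3 of 11 osteoclast, 3 of 12 macrophage, 2 of 10 endothelial and 5 of 7 osteoblast markers. Of those passing, 2, 3, 2 and 3 lay above every other library in both replicates. All hypertrophic chondrocyte and cartilage markers passed. Over all rows past the filter, 16.4% lay above every other library in both replicates and 14.8% below, a base without the markers that failed it. Because of these marker differences, the results below are given with and without hypertrophic replicate 1. That replicate was set apart after these data were seen. Calls and *P* values without it therefore describe the libraries kept and support nothing further. In such bulk samples, more cells of a type and more RNA per cell cannot be told apart, and the part of these markers in the results below was not tested.

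In hypertrophic replicates 2 and 3 most of the pump and lysosome machinery was high together, with the largest factors over WT proliferative among the rows past the filter for *Atp6v0d2* (110), *Ctsk* (22.3) and *Tcirg1* (12.9), followed by the ubiquitous *Atp6v1b2* (6.95). Both replicates lay above the other 10 libraries for 25 of the 32 rows past the filter, where 16.4% of all rows past the filter did so. Without *Atp6v0d2*, which passed the filter through the hypertrophic libraries alone, the count was 24 of 31. For 1 row, *Atp6v0a4*, both lay below, where 14.8% of all rows did so, and for 6 rows they overlapped the others. Hypertrophic replicate 1 lay inside the range of the 6 WT resting and proliferative libraries for 19 of the 32 rows, above it for 10 and below it for 3 (64.9% of all rows lay inside).

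**Figure D1:**
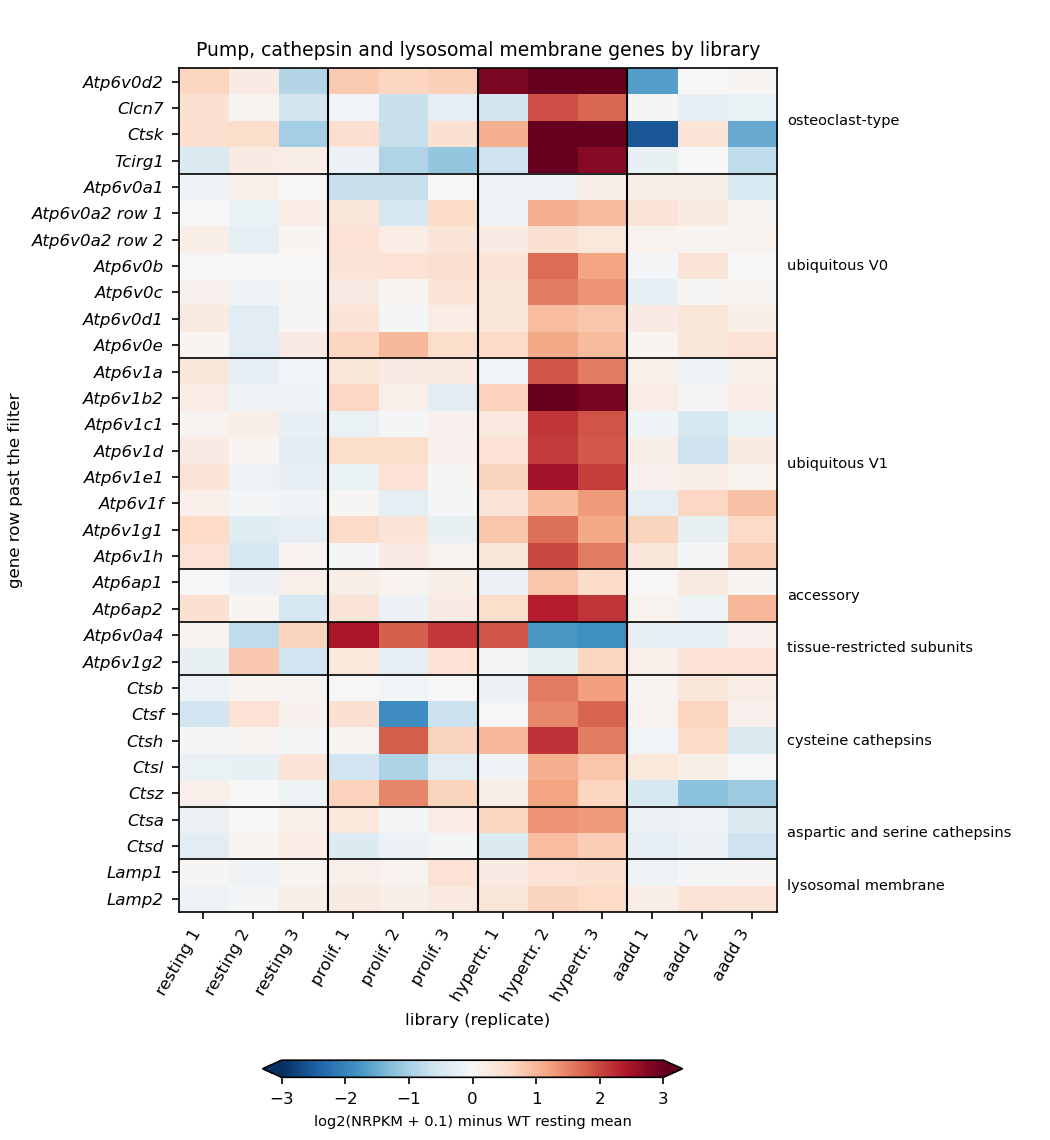
Level of the 32 rows past the filter in each of the 12 libraries, as log2(NRPKM + 0.1) minus the mean of the 3 WT resting libraries, with colors clipped at 3 log2 units and rows grouped by role. The columns of hypertrophic replicates 2 and 3 are red for most rows, that of replicate 1 is pale for most, and *Atp6v0a4* runs the other way.

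RefSeq promoters were matched for 23 of the 31 genes past the filter, 30 promoters in all. They were searched over the 250 bases before the start site on both strands for CACGTG, the E-box core that also stands in the binding element of the lysosomal regulator TFEB. The core was found in 8 of the 23 genes (*Ctsa*, *Ctsd*, *Ctsf*, *Ctsl*, *Lamp1*, *Clcn7*, *Atp6v0b*, *Atp6v1a*), or 26.7% of the 30 promoters, where 6.02% of all 32851 promoters hold it. Median GC content was 56.8% in the 30 promoters and 52.4% in all. The full TFEB element, which contains the core, was in none of the 30 and in 0.24% of all. TCATGTG was in 6.67% of the 30 and 3.25% of all, TGANTCA in 3.33% and 6.75%, and GAGGAA, the core of PU.1 sites, in 13.3% and 23.3%. A match is not a bound site, and no match says only that the letters are not in this window.

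The stretches shown are those that carry the core closest to the start in *Lamp1* and in 3 pump or channel genes that were high in hypertrophic replicates 2 and 3, and the *Ctsk* window, which has no core and 2 GAGGAA. Each is printed 5′ to 3′ on the strand of its gene in GRCm38.p6, the build that mm10 names, and ends 1 base before the RefSeq start site, which for *Lamp1* lies inside the deposited gene row. Capitals mark CACGTG, or GAGGAA and its reverse complement in *Ctsk*. They lie at chr8:13159061-13159160 (*Lamp1*), chr4:117887330-117887429 (*Atp6v0b*, minus strand), chr17:25133291-25133390 (*Clcn7*), chr16:44139260-44139409 (*Atp6v1a*, minus strand) and chr3:95498960-95499209 (*Ctsk*).
Lamp1: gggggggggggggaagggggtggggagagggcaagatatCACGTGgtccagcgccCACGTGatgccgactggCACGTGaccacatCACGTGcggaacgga
Atp6v0b: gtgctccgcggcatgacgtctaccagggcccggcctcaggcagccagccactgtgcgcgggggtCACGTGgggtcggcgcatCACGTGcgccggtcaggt
Clcn7: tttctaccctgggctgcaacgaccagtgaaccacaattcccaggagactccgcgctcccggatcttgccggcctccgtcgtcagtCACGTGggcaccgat
Atp6v1a: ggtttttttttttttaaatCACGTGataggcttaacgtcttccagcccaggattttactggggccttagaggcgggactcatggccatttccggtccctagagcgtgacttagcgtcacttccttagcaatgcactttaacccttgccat
Ctsk: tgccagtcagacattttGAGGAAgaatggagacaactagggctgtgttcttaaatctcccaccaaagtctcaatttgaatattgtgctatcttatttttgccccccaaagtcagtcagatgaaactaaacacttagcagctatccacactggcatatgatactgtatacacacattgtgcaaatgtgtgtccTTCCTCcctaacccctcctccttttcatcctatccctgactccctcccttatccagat
*Lamp1* holds 4 copies of the core within 61 bases of its start and *Atp6v0b* holds 2, while *Clcn7* and *Atp6v1a* hold 1 each, 15 and 131 bases before their starts.

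The d subunit joins the V0 ring to the stalk of the pump, and *Atp6v0d2* is its osteoclast isoform. *Atp6v0d2* (gene 242341, chromosome 4, 19876838 to 19922566 in mm10) was at 1.08, 0.805 and 0.313 NRPKM in WT resting, 1.22, 1.099 and 1.15 in WT proliferative, 5.30, 151 and 126 in WT hypertrophic, and 0.144, 0.654 and 0.698 in *aadd*. The 3 hypertrophic libraries lay above all others, replicate 1 by a small margin and replicates 2 and 3 at 28.4 and 23.7 times its level. Between 1.01 and 8.12 reads stood behind each value outside the hypertrophic libraries, 31.4 behind hypertrophic replicate 1 and 952 or more behind replicates 2 and 3. Against WT proliferative its log2 fold change was 5.22, with SE 1.33 and a limma adjusted *P* of 0.29 over all rows with no filter. The filter let it in through the group in which it is high, so the fits over filtered rows (adjusted *P* of 0.15, and 0.0011 at 6.78 without hypertrophic replicate 1) describe it and support nothing. *Atp6v0d1*, its ubiquitous counterpart, was at 46.6, 31.0 and 39.5 NRPKM in WT resting, 50.0, 36.7 and 45.2 in WT proliferative, 49.8, 73.4 and 68.2 in WT hypertrophic, and 45.8, 49.9 and 44.2 in *aadd*. Its hypertrophic rise over WT proliferative, 0.53 on the log2 scale, did not meet the criteria (SE 0.23, limma adjusted *P* of 0.27, and 0.072 without hypertrophic replicate 1). As a share of the summed d level per length, *Atp6v0d2* made up 67.2% and 64.8% in hypertrophic replicates 2 and 3, 9.63% in replicate 1, and 0.312 to 2.91% in the other 9 libraries.

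The a subunit anchors the pump in its membrane and sets where it goes, with isoform a3 (*Tcirg1*) the one of the osteoclast border. *Tcirg1* (gene 27060, chromosome 19, 3896050 to 3907133) was at 5.03, 8.19 and 7.84 NRPKM in WT resting, 6.07, 3.63 and 3.04 in WT proliferative, 4.44, 62.6 and 46.1 in WT hypertrophic, and 5.83, 6.91 and 3.98 in *aadd*. Hypertrophic replicate 1 sat within the range of the proliferative libraries, so the groups overlapped, and replicates 2 and 3 were 14.1 and 10.4 times replicate 1. The log2 fold change against WT proliferative was 2.505 (SE 0.998, limma adjusted *P* of 0.25), not called with the replicate block, without the filter or without any single library other than hypertrophic replicate 1, and 3.69 (SE 0.35, adjusted *P* of 0.0065) without that one. Leaving out another library gave 1.80 (hypertrophic replicate 2) to 2.79 (proliferative replicate 1). *Atp6v0a1* was at 10.8, 13.2 and 11.9 NRPKM in WT resting, 7.30, 7.30 and 11.9 in WT proliferative, 10.7, 11.1 and 13.6 in WT hypertrophic, and 13.4, 13.5 and 8.64 in *aadd*. The a1 isoform thus stayed between 7.30 and 13.6 NRPKM throughout, with hypertrophic replicates 2 and 3 inside the range of the other libraries or just above it. The first *Atp6v0a2* row was at 20.1, 17.6 and 23.7 NRPKM in WT resting, 26.0, 14.5 and 29.9 in WT proliferative, 18.4, 42.8 and 39.0 in WT hypertrophic, and 26.6, 24.5 and 21.5 in *aadd*. The second, under the same symbol, ranged from 10.4 to 17.4 NRPKM over all 12 libraries, with hypertrophic replicates 2 and 3 at 17.4 and 15.9. Counting a1, the first a2 row, a3 and a4, *Tcirg1* made up 53.3% and 46.3% of the summed a level in hypertrophic replicates 2 and 3 and 5.10 to 20.05% in the other 10 libraries. With the second a2 row in place of the first, its share was 68.1% and 60.3% there and 6.54 to 24.3% in the others.

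**Figure D2:**
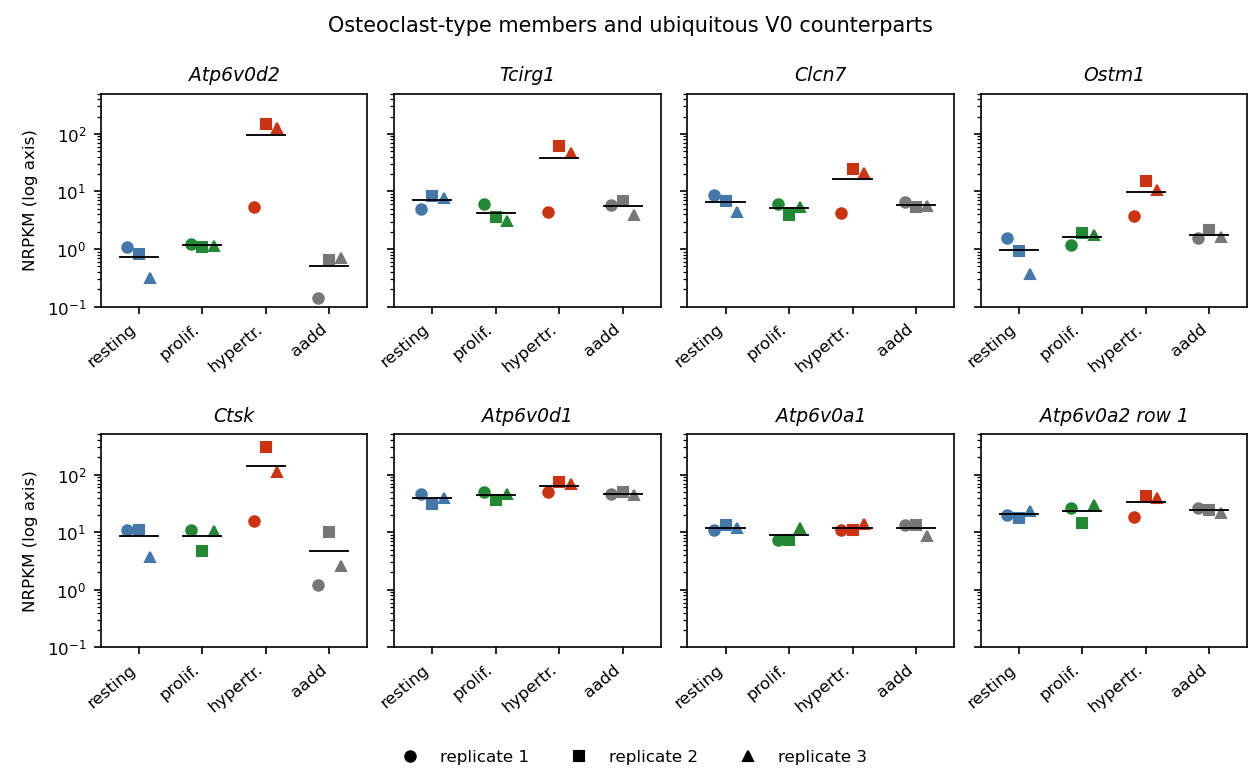
NRPKM on a log axis of the 5 osteoclast-type genes and 3 ubiquitous V0 rows in each library, grouped by compartment, with symbols for replicates 1 to 3 and a line at each group mean. For the 5 osteoclast-type genes hypertrophic replicates 2 and 3 sit above every other point, while *Atp6v0d1* spans 31.0 to 73.4 NRPKM and *Atp6v0a1* 7.30 to 13.6 over all 12 libraries.

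*Clcn7* encodes the chloride-proton exchanger that balances the charge carried by the pump, and *Ostm1* the membrane protein that exchanger needs to be stable. *Clcn7* was at 8.79, 6.73 and 4.32 NRPKM in WT resting, 5.95, 3.93 and 5.35 in WT proliferative, 4.27, 24.6 and 21.3 in WT hypertrophic, and 6.53, 5.37 and 5.54 in *aadd*. With replicate 1 below the proliferative mean, the log2 fold change of 1.37 was not called (SE 0.67, limma adjusted *P* of 0.31). It was called with all 12 libraries in 1 fit, and without that replicate at 2.17 (SE 0.24, adjusted *P* of 0.0089). *Ostm1* was at 1.58, 0.909 and 0.366 NRPKM in WT resting, 1.19, 1.89 and 1.73 in WT proliferative, 3.78, 15.2 and 10.4 in WT hypertrophic, and 1.57, 2.13 and 1.63 in *aadd*. All 3 hypertrophic libraries lay above all 9 others. It was not among the rows tested, and with no filter its log2 fold change against WT proliferative was 2.35 (SE 0.57, limma adjusted *P* of 0.27) and against WT resting 3.21 (SE 0.699, adjusted *P* of 0.11).

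Cathepsin K, encoded by *Ctsk* (gene 13038, chromosome 3, 95499286 to 95509362), is the collagen-cutting protease of osteoclasts. *Ctsk* was at 10.9, 11.0 and 3.69 NRPKM in WT resting, 10.7, 4.69 and 10.6 in WT proliferative, 15.95, 300.1 and 111 in WT hypertrophic, and 1.21, 10.2 and 2.62 in *aadd*. Every hypertrophic library was above the rest, replicate 1 by the smallest margin. The log2 fold change was 3.31 against WT proliferative (SE 1.05, limma adjusted *P* of 0.20) and 3.39 against WT resting (SE 1.08, adjusted *P* of 0.11), and 4.48 and 4.56 without hypertrophic replicate 1 (adjusted *P* of 0.011 and 0.0078). Leaving out proliferative replicate 2 or hypertrophic replicate 3 ended the call against WT proliferative, at 2.92 and 3.08, and leaving out resting replicate 3 or hypertrophic replicate 3 ended that against WT resting, at 2.88 and 3.17. *Ctsk* made up 44.7% and 28.3% of the summed cysteine cathepsin level in hypertrophic replicates 2 and 3 and 0.874 to 9.90% elsewhere. That sum held *Ctsk* and the other cysteine cathepsins, those below the filter included and the placental ones left out. *Ctss*, the next gene on chromosome 3 at 17423 bases from *Ctsk*, encodes a cathepsin of antigen-presenting cells and failed the filter. It was at 1.58, 10.5 and 4.70 NRPKM in WT hypertrophic and at most 2.37 in the other groups.

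**Figure D3:**
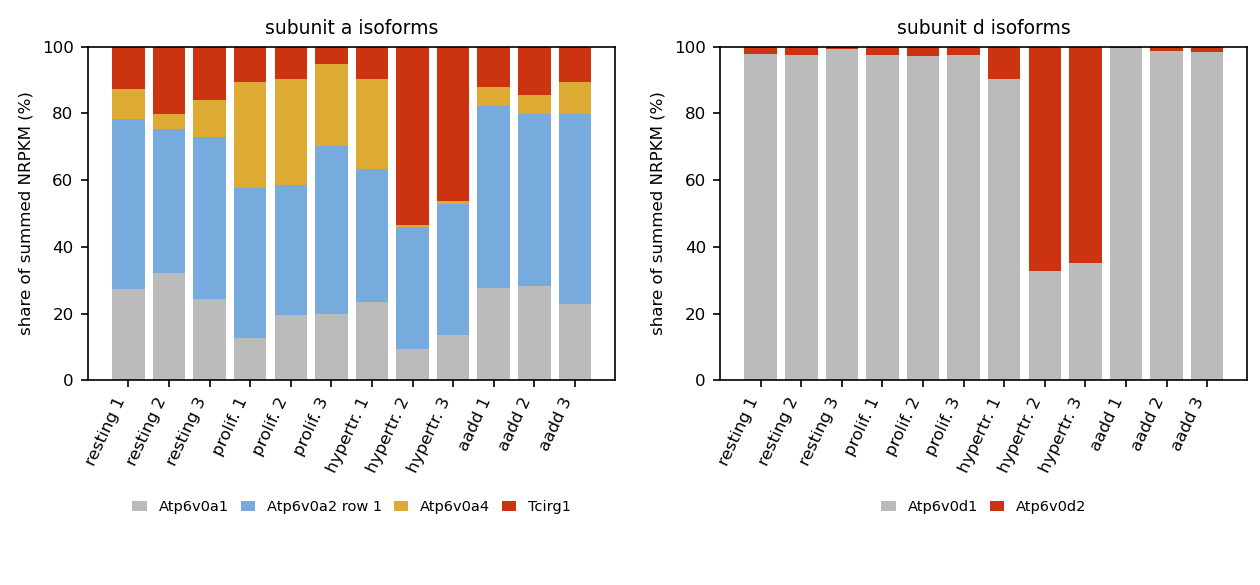
Share of the summed NRPKM of the a subunit isoforms (left, with the first *Atp6v0a2* row) and the d subunit isoforms (right) in each of the 12 libraries, in percent. *Tcirg1* and *Atp6v0d2* make up 53.3% and 67.2% in hypertrophic replicate 2, and 46.3% and 64.8% in replicate 3, and *Atp6v0a4* is widest in the proliferative libraries and hypertrophic replicate 1.

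In WT hypertrophic set against WT proliferative, 11 of the 32 rows met the study's criteria of an unadjusted *P* up to 0.05 and FC of at least 2, 10 higher and 1 lower, where 5.32% of all rows tested were called higher and 4.34% lower. The 10 were *Atp6v0d2*, *Tcirg1* and *Ctsk* of the osteoclast type, *Atp6v1b2*, *Atp6v1c1*, *Atp6v1e1* and *Atp6v1h* of the V1 sector, the accessory gene *Atp6ap2*, and the cathepsins *Ctsf* and *Ctsl*. Without *Atp6v0d2* the count was 9 higher of 31. After Benjamini-Hochberg adjustment in limma no row of the whole table passed 0.05, while 15 of the 32 rows and 2115 of all had an unadjusted *P* under 0.05. Without hypertrophic replicate 1, which was set apart on these same data, 20 rows were higher and 1 lower (9.79% and 8.56% of all rows). In that fit 19 of the 32 passed adjustment in limma (17.4% of all). The number called was 3 without hypertrophic replicate 2, 4 without replicate 3, 5 without proliferative replicate 2 or 3 and 9 without proliferative replicate 1. The shares of all rows called in these fits are not given here, so the falls are no result about these rows in particular. *Atp6v1e1* was called in all 6 fits that left out 1 library. *Atp6v0d2* was too, but it passed the filter through the hypertrophic libraries alone, so its calls describe it and support nothing. The median log2 fold change of the 32 rows was 0.87, and 1.18 without hypertrophic replicate 1, against 0.04 and 0.07 for all rows tested.

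The V1 sector is the ATP-splitting part of the pump, with A and B subunits forming the catalytic ring and C, D, E, F, G and H its stalks and brakes. All 8 ubiquitous V1 genes lay above the other 10 libraries in both hypertrophic replicates 2 and 3, against 16.4% of all rows past the filter. The summed level of the 8 genes was 561 and 468 NRPKM in these replicates. It was 126 to 204 NRPKM in the other libraries, hypertrophic replicate 1 being the highest of these. *Atp6v1b2*, the B subunit outside the kidney, was at 12.2, 9.67 and 9.80 NRPKM in WT resting, 16.2, 11.67 and 8.24 in WT proliferative, 17.02, 86.6 and 75.9 in WT hypertrophic, and 12.3, 10.7 and 12.3 in *aadd*. It had the largest log2 fold change of the V1 genes against WT proliferative, 2.05 (SE 0.66, limma adjusted *P* of 0.20), or 2.80 without hypertrophic replicate 1 (adjusted *P* of 0.0089). *Atp6v1e1*, a stalk subunit, was at 19.3, 13.4 and 12.56 NRPKM in WT resting, 12.9, 19.99 and 15.1 in WT proliferative, 23.7, 85.8 and 63.2 in WT hypertrophic, and 16.1, 17.1 and 15.97 in *aadd*. All 3 of its hypertrophic libraries were above all others, with a log2 fold change of 1.67 against WT proliferative (SE 0.49, limma adjusted *P* of 0.18) and 1.76 against WT resting (SE 0.49, adjusted *P* of 0.086).

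*Atp6v1c1*, which clamps the V1 and V0 sectors together, was at 15.3, 16.5 and 12.2 NRPKM in WT resting, 12.64, 14.0 and 16 in WT proliferative, 17.9, 64.98 and 54.1 in WT hypertrophic, and 13.3, 10.5 and 12.7 in *aadd*. *Atp6v1h*, a regulatory subunit, was at 9.51, 4.98 and 7.42 NRPKM in WT resting, 6.85, 8.43 and 7.55 in WT proliferative, 9.15, 28.7 and 21.0 in WT hypertrophic, and 8.97, 6.94 and 11.9 in *aadd*. Replicate 1 was only slightly above the proliferative libraries for both, and their log2 fold changes against WT proliferative were 1.49 and 1.21. That of *Atp6v1c1* was not called without proliferative replicate 1 (1.41) or 2 (1.48) or hypertrophic replicate 2 (1.13) or 3 (1.27), and that of *Atp6v1h* was called in none of the fits that left out 1 library (0.86 to 1.29) other than the one without hypertrophic replicate 1 (1.68). Against WT resting *Atp6v1c1* (1.44) lost its call without resting replicate 1 (1.48) or 3 (1.32) or hypertrophic replicate 2 (1.09) or 3 (1.22), and *Atp6v1h* (1.31) without resting replicate 2 (1.06) or 3 (1.35) or hypertrophic replicate 2 (0.97) or 3 (1.19). *Atp6v1d*, a subunit of the central rotor, was at 20.7, 18.2 and 13.9 NRPKM in WT resting, 24.98, 25.1 and 19.1 in WT proliferative, 23.3, 74.1 and 62.2 in WT hypertrophic, and 19.6, 11.3 and 20.9 in *aadd*. *Atp6v1g1*, a stalk subunit, was at 52.6, 26.6 and 29.3 NRPKM in WT resting, 51.0, 45.0 and 29.8 in WT proliferative, 61.4, 109 and 76.4 in WT hypertrophic, and 54.8, 29.4 and 51.6 in *aadd*. With all libraries in, both were called only against WT resting, at 1.45 and 1.21 (limma adjusted *P* of 0.11 and 0.089). *Atp6v1a*, the catalytic A subunit, and *Atp6v1f* were not called in any comparison with all libraries in, and without hypertrophic replicate 1 their log2 fold changes against WT proliferative were 1.41 and 1.21 (limma adjusted *P* of 0.011 and 0.021). *Atp6v1g2*, the G isoform of neurons, stayed between 3.65 and 9.97 NRPKM with hypertrophic replicates 2 and 3 inside that range.

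The ubiquitous V0 rows summed to 492 and 421 NRPKM in hypertrophic replicates 2 and 3 and 180 to 264 in the others. In both replicates 4 of the 7 rows lay above all other libraries, against 16.4% of all rows past the filter. *Atp6v0c*, the proton-carrying ring subunit, was at 80.9, 66.4 and 76.6 NRPKM in WT resting, 88.03, 79.0 and 98.8 in WT proliferative, 95.9, 220 and 189 in WT hypertrophic, and 62.9, 76.6 and 76.9 in *aadd*. *Atp6v0b*, a second ring subunit, was at 31.1, 31.2 and 31.7 NRPKM in WT resting, 41.1, 42.3 and 43.8 in WT proliferative, 41.5, 100.6 and 71.9 in WT hypertrophic, and 30.5, 41.0 and 31.1 in *aadd*. Both were called against WT resting, each at 1.09 (SE 0.33, limma adjusted *P* of 0.10), and neither against WT proliferative with all libraries in. *Atp6v0e* was at 9.76 to 14.3 NRPKM in WT resting and 18.03 to 26.8 in WT hypertrophic, with no overlap, at a log2 fold change of 0.89 that is under the FC limit. The median log2 fold change against WT proliferative was 0.48 for the 7 V0 rows, 1.13 for the 8 V1 genes and 2.91 for the 4 osteoclast-type genes (2.505 for the 3 other than *Atp6v0d2*), which describes these lists and was not tested.

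**Figure D4:**
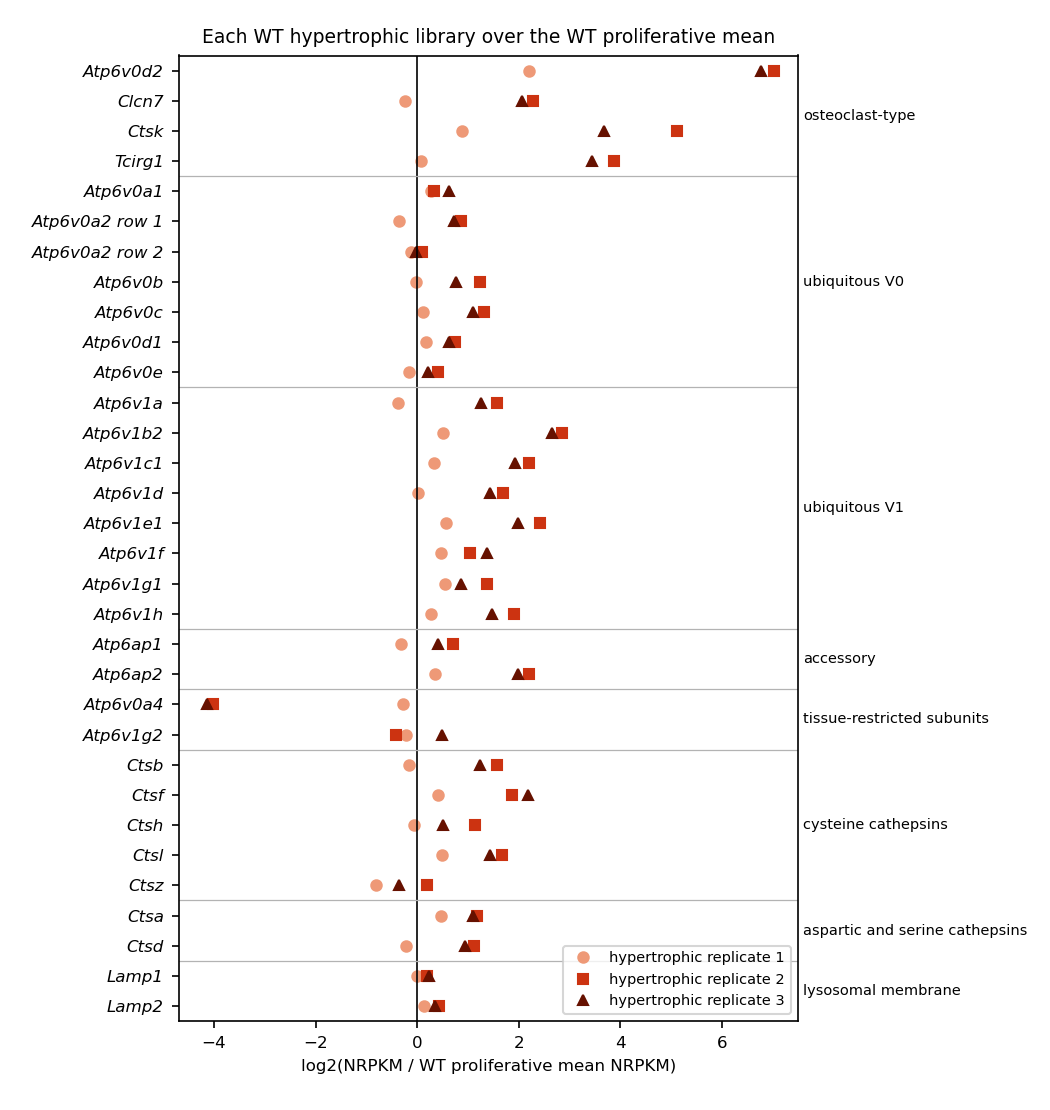
NRPKM of each WT hypertrophic library over the WT proliferative mean, on a log2 scale, for the 32 rows past the filter by role, with 1 symbol per replicate and a line at no difference. Replicates 2 and 3 lie close together and right of replicate 1 for nearly all rows, furthest for *Atp6v0d2*, *Ctsk* and *Tcirg1*, and far left of it for *Atp6v0a4*.

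Of the accessory proteins, *Atp6ap2*, the prorenin receptor, was at 8.24, 6.22 and 4.23 NRPKM in WT resting, 7.94, 5.31 and 7.16 in WT proliferative, 8.65, 31.3 and 26.9 in WT hypertrophic, and 6.49, 5.38 and 12.1 in *aadd*. It was called against WT proliferative at 1.52 (SE 0.51, limma adjusted *P* of 0.21) and WT resting at 1.67 (SE 0.53, adjusted *P* of 0.11), and lost the first call without proliferative replicate 2 (1.35) or 3 (1.56) or hypertrophic replicate 2 (1.17) or 3 (1.28), and the second without resting replicate 3 (1.43) or hypertrophic replicate 2 (1.33) or 3 (1.44). *Atp6ap1*, among the 5 highest rows, was at 67.7, 59.4 and 73.6 NRPKM in WT resting, 74.9, 70.1 and 75.5 in WT proliferative, 58.8, 119 and 98.0 in WT hypertrophic, and 66.6, 80.0 and 70.4 in *aadd*. Its lowest library was hypertrophic replicate 1 and its highest were replicates 2 and 3, and no comparison called it.

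The highest mean over the 12 libraries was that of *Lamp1*, which coats the inner face of the lysosomal membrane. It was at 96.2, 87.7 and 100.5 NRPKM in WT resting, 106, 102 and 128 in WT proliferative, 112, 129 and 132 in WT hypertrophic, and 84.7, 91.3 and 96.6 in *aadd*. The span from its lowest to its highest library was 84.7 to 132 NRPKM, and *Lamp2* spanned 22.2 to 39.1. Neither was called in any comparison, and the log2 fold changes against WT proliferative without hypertrophic replicate 1 were 0.22 and 0.38 (limma adjusted *P* of 0.43 and 0.16). In order of their means, *Lamp1* (105), *Ctsd* (103), *Atp6v0c* (100.9), *Atp6ap1* (76.2) and *Ctsz* (69.1 NRPKM) led the set, and their ranges over libraries overlapped from each to the next. The order differed by group, with *Ctsd* first in WT resting (102.3), *Lamp1* first in WT proliferative (111.9) and *aadd* (90.9), and *Atp6v0c* first in WT hypertrophic (168.4), where hypertrophic replicate 2 had *Ctsk* first (300.1).

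Of the aspartic and serine cathepsins, *Ctsd*, the main aspartic protease of lysosomes, was at 81.1, 108 and 118 NRPKM in WT resting, 76.5, 89.3 and 97.1 in WT proliferative, 74.9, 190.4 and 168 in WT hypertrophic, and 83.0, 89.2 and 65.4 in *aadd*. *Ctsa*, the protective protein of lysosomal sialidase, was at 29.1, 33.2 and 36.9 NRPKM in WT resting, 41.3, 32.3 and 38.4 in WT proliferative, 51.8, 84.2 and 80.1 in WT hypertrophic, and 28.9, 30.4 and 24.6 in *aadd*. All 3 hypertrophic libraries were the highest for *Ctsa*, which was called against WT resting at 1.09 (SE 0.24, limma adjusted *P* of 0.052) but not after quantile normalization, while *Ctsd* was not called with all libraries in. The row of *Ctsa* overlaps those of *Neurl2* and *Pltp*, and whether strand was used in counting is not given in the sources used here.

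*Ctsb*, *Ctsl*, *Ctsf* and *Ctsh* are lysosomal cysteine proteases. *Ctsl* was at 34.6, 34.2 and 53.3 NRPKM in WT resting, 26.5, 20.4 and 32.2 in WT proliferative, 37.1, 84.3 and 71.1 in WT hypertrophic, and 49.3, 44.9 and 39.9 in *aadd*. It was lower in each proliferative library than in any other, and was called in WT hypertrophic against WT proliferative (1.22, SE 0.36, limma adjusted *P* of 0.18) but not against WT resting (0.60, SE 0.36). *Ctsf* was at 3.09, 6.29 and 5.12 NRPKM in WT resting, 6.40, 1.20 and 2.91 in WT proliferative, 4.68, 12.9 and 15.9 in WT hypertrophic, and 5.01, 7.28 and 5.09 in *aadd*. Its call against WT proliferative (1.76, SE 0.71, limma adjusted *P* of 0.25) was lost without the filter or with a filter of 2 libraries, with quantile normalization, with the replicate block, and without proliferative replicate 2 (1.17, the library with 4.53 reads) or 3 (1.78) or hypertrophic replicate 2 (1.57) or 3 (1.42). *Ctsh* was at 5.27, 5.70 and 5.26 NRPKM in WT resting, 5.66, 19.3 and 8.64 in WT proliferative, 10.8, 24.7 and 15.9 in WT hypertrophic, and 5.09, 8.06 and 3.99 in *aadd*. It alone of the 32 passed adjustment in WT hypertrophic against WT resting, with a log2 fold change of 1.56 (SE 0.31, limma adjusted *P* of 0.04, range 0.0052 to 0.14 across alternative settings). *Ctsb* was at 25.4 to 36.5 NRPKM in 10 libraries and at 85.0 and 67.4 in hypertrophic replicates 2 and 3. *Ctsc*, which activates proteases of immune cells and missed the filter, was at 1.87, 26.5 and 19.7 NRPKM in WT hypertrophic and at most 3.12 in every other group.

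Against WT resting, 13 of the 32 rows were called in WT hypertrophic and all were higher, where 5.84% of all rows were called higher and 7.2% lower. These were *Atp6v0d2* and *Ctsk*, *Atp6v0b* and *Atp6v0c*, 6 of 8 V1 genes (*Atp6v1b2*, *Atp6v1c1*, *Atp6v1d*, *Atp6v1e1*, *Atp6v1g1*, *Atp6v1h*), *Atp6ap2*, *Ctsa* and *Ctsh*, or 12 of 31 without *Atp6v0d2*. One row passed adjustment, against 6.36% of all rows. Without hypertrophic replicate 1, 21 rows were higher and 1, *Atp6v0a4*, lower (9.42% and 9.83% of all), and 27 passed adjustment (24.2% of all). Without replicate 2 the number called was 5 and without replicate 3 it was 7, again with no share of all rows beside them. *Atp6v0d2* was at 5.94 on the log2 scale here (SE 1.37, limma adjusted *P* of 0.12 with no filter, and 0.051 over filtered rows).

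*Atp6v0a4* and *Ctsz* followed patterns of their own. *Atp6v0a4* (gene 140494, chromosome 6, 38048483 to 38124586) encodes the a4 isoform known from the acid-secreting cells of the kidney and inner ear. It was at 3.51, 1.92 and 5.34 NRPKM in WT resting, 18.4, 11.75 and 14.7 in WT proliferative, 12.3, 0.923 and 0.847 in WT hypertrophic, and 2.79, 2.72 and 3.63 in *aadd*. The proliferative libraries lay above all resting and *aadd* libraries, hypertrophic replicate 1 was among them, and hypertrophic replicates 2 and 3 were the lowest of all, with 10.7 and 9 reads. It was the one row of the 32 called between WT proliferative and WT resting, at 2.12 on the log2 scale (SE 0.38, limma adjusted *P* of 0.086, range 0.055 to 0.26 across alternative settings). That share, 1 of 32, compares with 5.53% of all rows (2.56% higher and 2.97% lower), none of the 32 passed adjustment in limma (0.622% of all), and 4 of the 32 rows and 1865 of all had an unadjusted *P* under 0.05. The call held with the replicate block and in all 6 fits that left out 1 library. From WT proliferative to WT hypertrophic it fell by 2.70 on the log2 scale (SE 0.999, limma adjusted *P* of 0.23), and fell by 3.91 (SE 0.24, adjusted *P* of 0.0033) without hypertrophic replicate 1. With that replicate in, the call was lost without any other single library, at falls of 2.06 to 2.86. With the first a2 row, *Atp6v0a4* made up 24.8 to 31.9% of the summed a level in the proliferative libraries and 26.8% in hypertrophic replicate 1. Its share was 4.70 to 10.9% in WT resting and 0.786% and 0.851% in hypertrophic replicates 2 and 3. The *Atp6v0a4* row overlaps those of *Tmem213* and *D630045J12Rik*.

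*Ctsz* (gene 64138, chromosome 2, 174427494 to 174438992) encodes cathepsin Z, a carboxypeptidase. It was at 59.6, 52.5 and 48.1 NRPKM in WT resting, 86.0, 147.8 and 84.4 in WT proliferative, 60.6, 122 and 82.8 in WT hypertrophic, and 38.1, 22.5 and 24.9 in *aadd*. All 3 *aadd* libraries lay below all 9 WT libraries, and the proliferative libraries above the resting ones. *Ctsz* fell by 0.94 on the log2 scale from WT resting to *aadd* (SE 0.23, limma adjusted *P* of 0.28, range 0.18 to 0.71 across alternative settings), past the FC limit of 1.5 used for *aadd*. It was the 1 row of the 32 called, where 6.56% of all rows were called (2.78% lower and 3.78% higher) and 0.119% passed adjustment in limma, and the 1 row with an unadjusted *P* under 0.05 (1048 of all rows). The call held in all 6 fits that left out 1 library and with the replicate block. From WT resting to WT proliferative *Ctsz* differed by 0.94 on the log2 scale as well (SE 0.26, limma adjusted *P* of 0.18), just under the FC limit of 2 used between WT compartments. *Ctsz* was the largest part of the cysteine cathepsin level in the proliferative libraries, at 48.3 to 66.0%, and made up 31.5 to 41.4% in WT resting and 16.6 to 27.5% in *aadd*. The row overlaps that of *Nelfcd*.

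**Figure D5:**
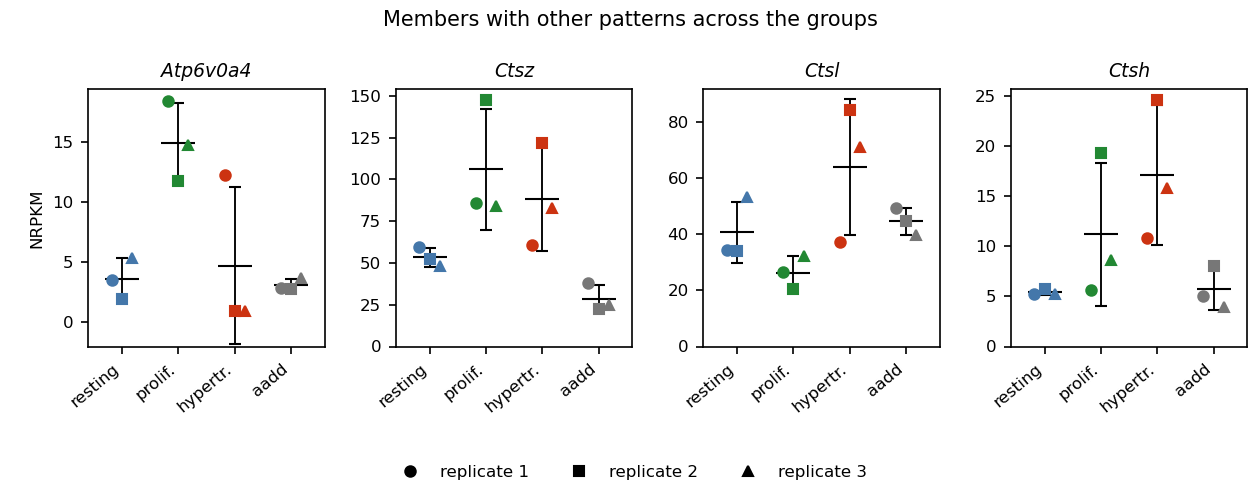
NRPKM of *Atp6v0a4*, *Ctsz*, *Ctsl* and *Ctsh* in each library by group on linear axes, with symbols for replicates 1 to 3 and group mean ± SD (n = 3). *Atp6v0a4* is high in WT proliferative and hypertrophic replicate 1, *Ctsz* is lowest in *aadd*, and *Ctsl* is lowest in WT proliferative.

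The other pump and cathepsin genes showed no call in *aadd*. The 4 osteoclast-type genes past the filter had log2 fold changes of -0.53 (*Atp6v0d2*), -1.22 (*Ctsk*), -0.33 (*Tcirg1*) and -0.13 (*Clcn7*) against WT resting, with SE of 0.56, 0.78, 0.28 and 0.27. *Ostm1*, below the filter, went the other way at 1.01 with no filter (SE 0.50, limma adjusted *P* of 0.75). The median over the 32 rows was 0.10, against 0.01 for all rows. *Ctsk* varied most within *aadd*, from 1.21 to 10.2 NRPKM with 5.1 to 33.9 reads, and met the criteria only without *aadd* replicate 2 (-2.03), the library with the highest sums of macrophage (61.1 NRPKM), endothelial (37.3) and erythroid (190.3) markers outside hypertrophic replicates 2 and 3. The part of these markers in the *Ctsk* value was not tested.

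Other genes of the lysosome that are not pump or cathepsin genes moved in part. Of 23 hydrolases tested, 3 were called higher in WT hypertrophic against WT proliferative and none lower (5.32% of all rows were called higher): *Lgmn*, a protease that matures cathepsins (1.496), *Smpd1*, acid sphingomyelinase (1.29), and *Neu1*, a sialidase (1.21 on the log2 scale). Without hypertrophic replicate 1 the number was 9 (9.79% of all rows). The median of the 23 was 0.47, and 15 of them (65.2%) lay above the other 10 libraries in both hypertrophic replicates 2 and 3, against 16.4% of all rows. Of 13 genes of the lysosomal membrane and of delivery to it, none was called against WT proliferative (5.32% of all rows were called higher). Without hypertrophic replicate 1, 4 were called higher (9.79% of all rows). In both hypertrophic replicates 2 and 3, 6 of the 13 (46.15%) lay above the other 10 libraries and 1 below, against 16.4% and 14.8% of all rows. *Npc2*, a cholesterol carrier, was called higher against WT resting (1.22, SE 0.25, limma adjusted *P* of 0.042), where 5.84% of all rows were. Both cathepsin inhibitors past the filter lay above the other 10 libraries in hypertrophic replicates 2 and 3, against the same 16.4% of all rows. *Cstb*, cystatin B, was called at 1.45 against WT proliferative (SE 0.43, limma adjusted *P* of 0.18).

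Regulators of the lysosome and genes of pump assembly were read in the same way. Of 15 regulators 12 were tested (*Tfe3*, mTORC1 and its lysosomal partners), while *Tfeb*, *Mitf* and *Tfec* did not pass the filter. Of the 12 tested none was called in WT hypertrophic against WT proliferative (5.32% of all rows were called higher), with a median of 0.33. In hypertrophic replicates 2 and 3, 3 of them (25%) lay above the other 10 libraries, against 16.4% of all rows. Of those not tested, *Mitf* was at 2.94, 6.09 and 6.82 NRPKM in WT hypertrophic and at most 1.63 elsewhere, and *Tfeb* was at 1.103 to 1.89 in WT hypertrophic and 2.24 to 6.26 elsewhere. Against WT resting *Rragd*, a GTPase that recruits mTORC1, was called at 1.35 (SE 0.33, limma adjusted *P* of 0.063). Of 8 genes of pump assembly and regulation none was called in any of the 4 comparisons, and 2 (25%) lay above the other 10 libraries, against the same 16.4%. Between WT proliferative and WT resting *Lgmn* (1.14) and *Tmem192*, a lysosomal membrane protein (1.14, limma adjusted *P* of 0.049), were called higher. In *aadd* against WT resting *Rragc* (0.65, limma adjusted *P* of 0.28) and *Tmem192* (0.65, adjusted *P* of 0.31) were called higher and no gene of these lists lower.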

How the data were processed

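RNA was taken by LCM from 10 μm sections, amplified with the NuGen Ovation system and sequenced by the authors, who removed multiply aligned and duplicate reads and used build mm10 and GeneSpring 12.6.1. Their processing notes also name TopHat. The deposited values are RPKM on a linear scale, normalized further between libraries and called NRPKM. The scaling between libraries and the use of strand are not given in the sources used here. Depth was read from the value of 1 read (given in the report) and bounds counting error alone.

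The measure tested was log2(NRPKM + 0.1), in limma 3.58.1 in R 4.3.3 over the 10936 rows that reached 5 NRPKM in 3 or more of the 12 libraries, each comparison on its 6 libraries with no covariate, with plots made in matplotlib 3.10.9. All fold changes are on this scale, which understates those of low genes. A row was called when its unadjusted *P* was 0.05 or less and its FC 2 or more (1.5 for *aadd*), and adjusted *P* values are Benjamini-Hochberg over all rows. The procedure was run on simulated data for WT proliferative against WT resting alone, with independent noise, and the outcome is not given here. That run does not bear on the hypertrophic comparisons, where the replicates differ. Values in every library are given for the osteoclast-type genes, their counterparts, every row called and the 5 highest rows, and the others by range. Of lists outside the set, at most 3 called genes were named. A few others were named after their values were seen. The members and lists were chosen with earlier results of these data known.

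Alternatives were a pseudocount of 1, no filter, a filter over the 6 libraries compared, 2 rescalings, all 12 libraries in one fit, a replicate block, a variance trend and each library left out. A filter of 2 libraries was added after seeing the data. Between WT proliferative and WT resting, deviations from the group mean correlated across genes within each replicate number (*r* of 0.281, 0.179 and 0.198), so these numbers were taken to pair the libraries, and the block changed no call among the 32 rows there. Where they come from is not stated.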

Additional observations from a re-analysis of the deposited data

How the results depend on the processing

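The number of rows called depended most on single libraries. The counts here are of pump and cathepsin rows, without the shares of all rows called in the same fits. They are therefore no result about these rows in particular. With 1 library left out it ran from 1 to 5 in WT proliferative against WT resting (1 with all, 3 without resting replicate 1, 5 without proliferative replicate 1, 2 without proliferative replicate 3), 3 to 21 in WT hypertrophic against WT proliferative (11 with all), 5 to 22 in WT hypertrophic against WT resting (13 with all) and 1 to 2 in *aadd* against WT resting (1 with all, 2 without resting replicate 2 or *aadd* replicate 1 or 2). The filter of 2 libraries together with leaving out hypertrophic replicate 1 gave 23 against WT proliferative and 24 against WT resting. Without the filter *aadd* against WT resting had 2, the second being *Atp6v1g3* which had 5 reads or fewer in each WT resting library. Over the other settings that kept all libraries the counts stayed within 1.5 times (9 with the replicate block in WT hypertrophic against WT proliferative, 13 against WT resting). Of the 128 log2 fold changes of the 32 rows in 4 comparisons, 25 turned direction under at least 1 alternative (9 in WT proliferative against WT resting, 11 in *aadd* against WT resting, 3 and 2 in WT hypertrophic against WT resting and WT proliferative), and none of the 25 was called. Among the osteoclast-type genes it turned for *Ctsk* in WT proliferative against WT resting without WT resting replicate 3 (-0.43) or WT proliferative replicate 1 (-0.11) or 3 (-0.10), in a range of -0.43 to 0.48, and in *aadd* against WT resting for *Atp6v0d2* without *aadd* replicate 1 (0.027, range -0.97 to 0.027) and *Clcn7* without WT resting replicate 1 (0.10, range -0.40 to 0.10). The cause was not tested. With 1 library left out, 222 log2 fold changes were followed, those of the rows called in each comparison and of the osteoclast-type genes past the filter. Of these, 155 kept their direction and side of the criteria, 56 lost their call, 6 gained a call and 5 turned direction. Outside WT proliferative against WT resting, same-numbered libraries correlated at *r* of -0.10 to 0.28. For WT hypertrophic the block ended the calls of *Ctsf* and *Tcirg1* against WT proliferative and of *Atp6v1h* against WT resting, where it added *Ctsf*. Every library correlated best with its own number between WT hypertrophic and WT resting, as between WT proliferative and WT resting, and 3 of 6 did in each of the other 2 comparisons. At this depth genes of a few reads, such as *Atp6v0d2* outside the hypertrophic libraries, have folds that depend on the 0.1 added.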

Other observations

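The 2 rows of *Atp6v0a2* cover separate stretches of chromosome 5 (124629189 to 124646733 and 124712208 to 124722146 in mm10). The ratio of the first to the second was 2.46 in both hypertrophic replicates 2 and 3 and 0.990 to 1.97 in the other 10 libraries. The first row rose by 1.01 on the log2 scale in WT hypertrophic against WT resting without hypertrophic replicate 1 (limma adjusted *P* of 0.018), where the second differed by 0.39 (adjusted *P* of 0.21). The difference between the rows was not tested.

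Of the tissue-restricted subunits, *Atp6v0e2*, *Atp6v1b1*, *Atp6v1c2*, *Atp6v1e2* and *Atp6v1g3* were under 5 NRPKM in every library. *Ctse*, an aspartic protease of immune and gut cells, was at 1.15 and 1.59 NRPKM in hypertrophic replicates 2 and 3 and at most 1.12 elsewhere. *Ctso* and *Ctsw* reached at most 3.82 and 2.64 NRPKM.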
